A study of Mus musculus with 15 samples.

Results

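Diabetes and deletion of the receptor RAGE were combined in this mouse study, and the subject here is their interaction. The interaction of a gene is its diabetes effect in aortas that lack RAGE minus its diabetes effect in aortas that have it. It is negative where diabetes went with a higher level, or a smaller decrease, in the mice with RAGE than in the mice without. All 15 arrays of the series entered it, and 45037 of 45101 probe sets, the others being the manufacturer's controls.

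RAGE, the product of Ager, is a cell surface receptor for glycated proteins and for S100 proteins, and it is known for its part in the vascular complications of diabetes. Apoe encodes the apolipoprotein through which the liver clears lipoprotein remnants, and mice without it develop atherosclerosis. In the diabetic artery wall, RAGE signalling in smooth muscle, endothelium and macrophages is known to favour inflammation and matrix production.

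All mice were male, on a C57BL/6 background, homozygous null for Apoe and 9 weeks old when the whole aorta, from root to bifurcation, was taken. Diabetes was induced with 5 daily injections of streptozotocin, which destroys pancreatic beta cells, at 65 mg/kg from the age of 6 weeks. Non-diabetic mice received citrate buffer. The groups were 4 non-diabetic and 4 diabetic ApoE-/- mice (called Apoe null, replicates 5 to 8 and 1 to 4), and 3 non-diabetic and 4 diabetic ApoE-/- RAGE-/- mice (called Apoe/RAGE null, replicates 13 to 15 and 9 to 12). The mice lacking Apoe alone came from a commercial supplier and those lacking both genes from a laboratory colony, so that genotype and colony cannot be told apart. Streptozotocin acts on beta cells by direct toxicity, and citrate controls did not receive it, so that high glucose and other effects of the drug cannot be told apart either.

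Each aorta gave 1 array, and levels are log2 values, on which a difference of 1 is a doubling. The array medians lay between 4.35 and 4.42 and the pairwise correlations between 0.972 and 0.997. Smooth muscle actin Acta2 read 13.19 to 13.45 on the 15 arrays and the endothelial marker Pecam1 7.06 to 8.26. The adipocyte hormone Adipoq read 11.42 to 12.35 and the skeletal muscle actin Acta1 4.98 to 11.35. RNA typical of tissue around the vessel was thus present, at levels that differed between samples. For such whole tissue, fewer cells of a type and less RNA per cell cannot be told apart.

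Groups are used as labelled, and the labels of 2 arrays could not be borne out. The Ager probe set read 4.17 to 4.69 on the 8 Apoe null arrays. It read 4.63 and 4.48 in diabetic Apoe/RAGE null replicates 9 and 10, within that range, and 4.89 to 5.36 on the other 5 Apoe/RAGE null arrays, above it. The labels do not place it inside or outside the deleted part of the gene, and it is not used to check the deletion. Decr2, a peroxisomal reductase gene within 20 Mb of Ager, read 6.84, 6.98 and 6.90 in the non-diabetic Apoe/RAGE null aortas and 5.32 to 6.01 in all Apoe null aortas. In the diabetic Apoe/RAGE null aortas it read 5.19 and 5.10 in replicates 9 and 10 but 7.40 and 7.56 in replicates 11 and 12. Replicates 9 and 10 thus lay with the Apoe null arrays at this gene. Zfp52, Eme2, Rnf5, Polh and Cyp39a1, other genes near Ager that like Decr2 were chosen after their values were seen, placed replicates 9 and 10 outside the range of the non-diabetic Apoe/RAGE null arrays and nearer the Apoe null arrays as well. At Cyp39a1 replicate 11 was also outside that range, at 5.39 against 6.00 to 6.13, with the highest Apoe null array at 4.98. Because the labels of replicates 9 and 10 are in doubt, each interaction of a gene below is given with all 15 arrays. After the word or or in brackets follows its value without these 2.

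No single probe set had an interaction that passed correction for multiple testing. With limma and Benjamini-Hochberg adjustment, 0 of 45037 probe sets (0%) had an adjusted p under 0.05, and the smallest adjusted p was 0.675. At an unadjusted p under 0.05 there were 3251 (7.22%), and 0 passed the submitters' threshold of B above 0, where B is limma's log odds of a difference. Without replicates 9 and 10 the smallest adjusted p was 0.526, with 3905 at an unadjusted p under 0.05 and 0 at B above 0. The standard error of an interaction, which sums the error of 4 group means, had a median of 0.169, against 0.115 for the diabetes effect in Apoe null and 0.124 in Apoe/RAGE null aortas. Values below are thus estimates with errors, and the words higher and lower describe these arrays.

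The interactions at an unadjusted p under 0.05 leaned to the negative side. Of the 3251 probe sets, 2218 were negative and 1033 positive (31.8% positive). Without replicates 9 and 10 the balance was nearly even, with 2070 negative and 1835 positive (47% positive). Over 18193 genes, each read by its probe set with the highest mean, 1121 (6.16%) were negative and 439 (2.41%) positive at that threshold. Without replicates 9 and 10, 1028 genes were negative and 966 positive at it, 11% of genes in all. Over all genes regardless of p, 9140 (50.2%) were negative, 9053 (49.8%) positive, and the median was -0.00. These shares are the background for the gene groups below.

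The diabetes effects in the 2 genotypes come from different mice and can be set against each other. Their Pearson correlation over 45037 probe sets was 0.215 and Spearman's rho 0.11, as a description across probe sets, which are not independent. It was 0.0953 without replicate 15, 0.3114 without replicate 13 and -0.03 without replicates 9 and 10. Genes whose diabetic and non-diabetic arrays did not overlap numbered 1386 (7.62%) in Apoe null and 1216 (6.68%) in Apoe/RAGE null aortas. By chance alone, 4 arrays against 3 fall apart more often than 4 against 4, so that these 2 shares cannot be compared directly. Only 26 genes (0.143%) were separated in both genotypes in opposite directions, and 33 (0.181%) in both in the same direction. Of the 26, 22 (0.121%) were higher with diabetes in Apoe null and lower in Apoe/RAGE null aortas, and 4 (0.022%), Ptcd1, Hs1bp3, Golga2 and Plcg1, were the reverse.

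**Figure D1:**
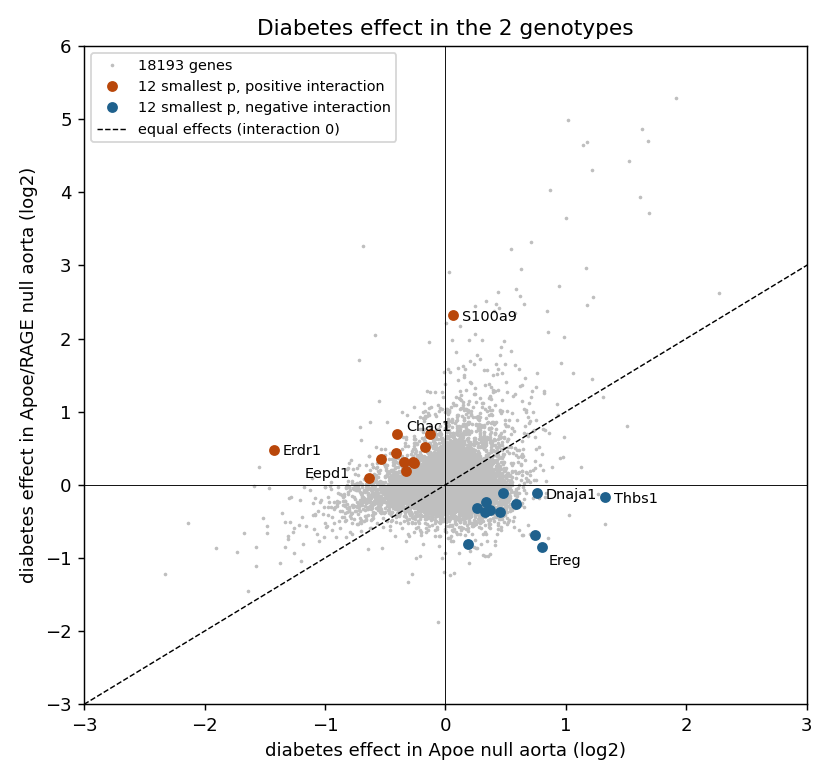
Diabetes effect of each gene in Apoe null aorta (x axis, log2) against that in Apoe/RAGE null aorta (y axis, log2), 18193 genes as grey points; the coloured points are named genes with a negative or a positive interaction. The cloud has little slope, and the named genes lie off the line of equal effects, with Ereg and Thbs1 on the lower right and Erdr1 on the upper left.

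Ereg, which encodes the EGF receptor ligand epiregulin, had the most negative interaction of the 12 negative genes with the smallest p. It read 4.41, 5.49, 5.44 and 5.24 in non-diabetic and 5.86, 5.53, 6.27 and 6.11 in diabetic Apoe null aortas. With RAGE deleted it read 4.99, 5.43 and 5.39 without and 4.56, 4.12, 4.30 and 4.71 with diabetes. Diabetic arrays were thus all higher in the one genotype and all lower in the other, with no overlap in either. The interaction was -1.65 ± 0.33 (SE; limma adjusted p = 0.675), or -1.57 without replicates 9 and 10. Diabetic Apoe/RAGE null aortas were lower in Ereg than diabetic Apoe null aortas by a log2 difference of -1.52 (limma adjusted p = 0.0356), a comparison in which 110 of 45037 probe sets (0.244%) passed. Without replicates 9 and 10, an alternative chosen after the data were seen, 22 passed, and Ereg had -1.44 (limma adjusted p = 0.0792). With limma, 0 passed without replicate 1, 3, 4 or 14 (4925, 4484, 6374 and 6278 at an unadjusted p under 0.05), 1 to 36 without 6, 9, 10, 11, 12, 13 or 15, 347 without 5, 931 without 2, and 97 and 112 without 7 and 8. Calls in that comparison thus depend on which arrays enter it.

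Tshz3, a zinc finger transcription factor gene, and Pip5k1b, a kinase gene for the lipid phosphatidylinositol bisphosphate, had the same layout. Tshz3 read 6.05, 6.41, 6.28 and 6.12 without and 6.96, 6.48, 6.84 and 6.92 with diabetes in Apoe null aortas. Its Apoe/RAGE null values were 6.29, 6.53 and 6.33 without and 6.19, 6.24, 6.10 and 5.95 with diabetes. The groups were separate in both genotypes, and the interaction was -0.85 ± 0.17 (SE), or -0.95 without replicates 9 and 10. Pip5k1b read 5.89, 5.77, 5.86 and 5.59 against 6.30, 5.97, 6.26 and 6.39 in Apoe null aortas, and 5.77, 5.75 and 5.81 against 5.55, 5.19, 5.27 and 5.65 in Apoe/RAGE null aortas. It too was separate in both genotypes, with an interaction of -0.82 ± 0.17 (SE), or -0.77.

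Camta1, a calmodulin-binding transcription activator gene, had a different layout. Its Apoe null values were 6.20, 6.65, 6.97 and 6.79 without and 6.98, 6.55, 6.84 and 6.99 with diabetes, which overlap. In the mice without RAGE it read 7.29, 7.51 and 7.33 without diabetes, above every other array, and 6.64, 6.25, 6.65 and 6.70 with it. The interaction of -1.0 ± 0.23 (SE; -0.88 without replicates 9 and 10) thus went with a high non-diabetic Apoe/RAGE null group. Scube3, a secreted EGF-like protein gene within 20 Mb of Ager, read 7.63, 8.57, 8.65 and 7.99 against 8.97, 8.45, 9.28 and 9.10 in Apoe null aortas. Without RAGE it read 8.21, 8.35 and 7.98 against 7.87, 7.10, 7.36 and 7.66, with no overlap there, and its interaction was -1.42 ± 0.34 (SE), or -1.41.

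The other negative genes of this rank were Dnaja1, Chordc1, Lgalsl, Cdkn2aip, Sgce, Thbs1 and Ppp1r26. In all 12 the diabetes effect was positive in Apoe null (0.19 to 1.32) and negative in Apoe/RAGE null aortas (-0.85 to -0.11), where Dnaja1 was at 0.04 without replicates 9 and 10. The interactions ran from -1.65 to -0.57 with all arrays and from -1.57 to -0.55 without replicates 9 and 10. Without diabetes the genotypes differed in them by -0.03 to 0.72, and with diabetes by -1.52 to -0.28, where 8 of the 12 passed (limma adjusted p under 0.05), or 0 of the 12 without replicates 9 and 10. Since they were ranked on the interaction, these signs describe them and do not test it.

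**Figure D2:**
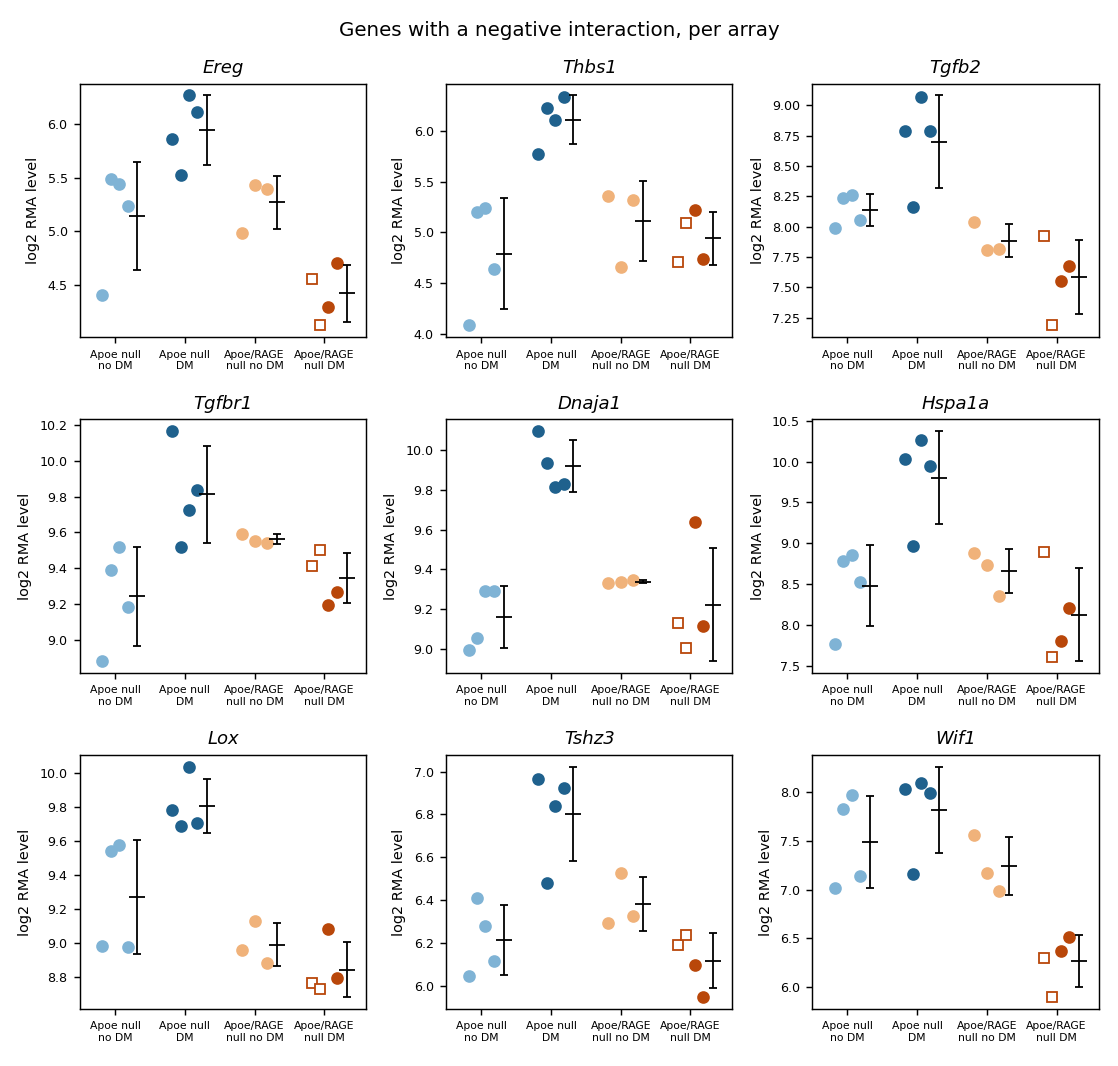
Log2 level per array (points; y axis) with the group mean and SD (bars) of 9 genes with a negative interaction, in the order non-diabetic and diabetic Apoe null, then non-diabetic and diabetic (DM) Apoe/RAGE null; open squares are diabetic Apoe/RAGE null replicates 9 and 10. In Thbs1 and Dnaja1 the 4 diabetic Apoe null arrays lie above the other groups.

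Genes of the TGF-beta pathway, a main inducer of matrix and contractile genes in the artery wall, mostly had negative interactions. Of 23 measured genes 22 were negative, against 50.2% of all genes, and 8 were negative at an unadjusted p under 0.05, against 6.16%, with 0 of 23 passing adjustment. The median was -0.31, beside median diabetes effects of 0.25 in Apoe null and -0.19 in Apoe/RAGE null aortas. Here and below, each of these medians is taken over the genes on its own. Without replicates 9 and 10 the median was -0.39 with 22 of 23 negative.

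Thbs1, a matricellular protein that activates latent TGF-beta, read 4.08, 5.20, 5.24 and 4.63 without and 5.77, 6.23, 6.11 and 6.33 with diabetes in Apoe null aortas. In Apoe/RAGE null aortas it read 5.36, 4.66 and 5.32 without and 4.70, 5.10, 5.22 and 4.73 with diabetes. The diabetic Apoe null arrays stood above all others, and the Apoe/RAGE null groups overlapped. Its interaction was -1.49 ± 0.35 (SE), or -1.46 without replicates 9 and 10, and -1.26 without replicate 5, its lowest array.

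Among ligands and receptors, Tgfb2 read 7.99, 8.24, 8.26 and 8.06 against 8.78, 8.16, 9.07 and 8.79 in Apoe null aortas. Its Apoe/RAGE null values were 8.04, 7.80 and 7.81 against 7.92, 7.18, 7.55 and 7.68. Diabetic replicate 2 lay within the non-diabetic Apoe null range, and the groups of both genotypes overlapped by 1 array. The interaction of Tgfb2 was -0.86 ± 0.26 (SE), or -0.83 without replicates 9 and 10.

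Tgfbr1, the type I receptor kinase, was the TGF-beta gene separated in both genotypes. It read 8.88, 9.39, 9.52 and 9.18 without and 10.16, 9.52, 9.72 and 9.84 with diabetes in Apoe null aortas, the nearest arrays being equal to 2 decimals. With RAGE deleted it read 9.59, 9.55 and 9.54 without and 9.42, 9.50, 9.20 and 9.27 with diabetes, lower in every diabetic array. The interaction was -0.79 ± 0.21 (SE), or -0.90 without replicates 9 and 10, and all 3 of its probe sets were negative. Skil, a repressor of Smad transcription factors, had -0.49 ± 0.16 (SE), or -0.48, and the target gene Ccn2, named after its value was seen, -0.75 ± 0.30, or -1.08. Other ligands and receptors, also named after their values were seen, were nearer 0, with Tgfb1 at -0.07 ± 0.22 (-0.15), Tgfb3 at -0.31 ± 0.26 (-0.18) and the type II receptor gene Tgfbr2 at -0.31 ± 0.16 (-0.40). Of the 3 probe sets of Tgfbr2 only 1 had that sign, and the sign of Tgfb1 turned under 5 alternatives.

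Cytosolic heat shock genes, whose products refold damaged proteins and are switched on by the factor HSF1, were another group of this kind. Of 19 measured genes 17 were negative and 7 were so at an unadjusted p under 0.05, with 0 passing adjustment. Their median was -0.35, beside median diabetes effects of 0.29 in Apoe null and -0.11 in Apoe/RAGE null aortas. The median was -0.32 without replicates 9 and 10, and the diabetes effect in Apoe/RAGE null aortas 0.01. The score of the list, the mean over its genes of the level minus that gene's mean over the 15 arrays, was 0.17 to 0.42 in diabetic Apoe null aortas. It was -0.31 to 0.03, -0.10 to -0.04 and -0.34 to -0.04 in the non-diabetic Apoe null, non-diabetic Apoe/RAGE null and diabetic Apoe/RAGE null aortas. The diabetic Apoe null arrays stood apart from the other 11.

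The 130 bases before the start of 4 of these genes are shown because HSF1 binds repeats of GAA and TTC. They are 3 of the 4 genes of smallest p, Chordc1 being left out because its window held no match, and Hsph1, which was added for its match after its values were seen. Sequences are those of RefSeq on GRCm38.p6, in the direction of the gene, with a match to GAANNTTC or TTCNNGAA in capitals except its 2 free bases. Each form is its own reverse complement, so that 1 search covers both strands, and the forms can overlap.
Hspa1a: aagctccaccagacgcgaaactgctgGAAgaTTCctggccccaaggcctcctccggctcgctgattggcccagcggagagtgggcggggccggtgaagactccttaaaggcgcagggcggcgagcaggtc
Hspa1b: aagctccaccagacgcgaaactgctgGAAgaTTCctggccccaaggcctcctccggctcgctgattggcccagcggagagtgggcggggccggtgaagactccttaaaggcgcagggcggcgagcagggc
Hsph1: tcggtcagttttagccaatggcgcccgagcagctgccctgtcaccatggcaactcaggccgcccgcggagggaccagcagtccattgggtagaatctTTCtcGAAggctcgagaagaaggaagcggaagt
Dnaja1: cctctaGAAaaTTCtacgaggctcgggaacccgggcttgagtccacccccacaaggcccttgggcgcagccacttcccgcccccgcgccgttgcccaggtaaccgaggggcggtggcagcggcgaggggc
They lie at chr17:34972157-34972286, chr17:34959239-34959368 and chr5:149636337-149636466 on the minus strand and chr4:40722338-40722467 on the plus strand. The match begins 104 bases before the start in Hspa1a and Hspa1b, 33 in Hsph1 and 124 in Dnaja1. In windows of 250 bases before the start, 8 of the 17 measured heat shock genes with a window held a match, against 14.5% of 27025 genes, which describes the letters and not binding. The most matches, 3 each, were in Hspd1 and Hspe1, the mitochondrial chaperonin genes, whose interactions were the 2 positive ones of the list: 0.14 ± 0.27 (SE), or 0.49, and 0.17 ± 0.22, or 0.43. Both were named after their values were seen.

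Dnaja1, a co-chaperone of HSP70, read 9.00, 9.06, 9.29 and 9.29 without and 10.09, 9.94, 9.81 and 9.83 with diabetes in Apoe null aortas. In Apoe/RAGE null aortas it read 9.33, 9.34 and 9.35 without and 9.13, 9.01, 9.64 and 9.11 with diabetes. Diabetic Apoe null arrays were above all others, while in Apoe/RAGE null aortas 3 diabetic arrays lay below and replicate 11 above the non-diabetic ones. The interaction was -0.88 ± 0.18 (SE), or -0.72 without replicates 9 and 10. Chordc1, a partner of HSP90, read 7.67, 7.76, 7.90 and 7.90 against 8.39, 8.25, 8.22 and 8.29, and 7.77, 7.86 and 8.02 against 7.73, 7.77, 7.93 and 7.67, with an interaction of -0.58 ± 0.12 (SE), or -0.56. Only the diabetic Apoe null group was apart.

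Hspa1a and Hspa1b encode the inducible HSP70 and are near-identical neighbours, with 129 of the 130 bases above in common, so that their probe sets may read each other and are uncertain as separate genes. Hspa1a read 7.76, 8.78, 8.85 and 8.52 against 10.03, 8.97, 10.27 and 9.95 in Apoe null aortas, and 8.88, 8.74 and 8.35 against 8.89, 7.60, 7.80 and 8.21 in Apoe/RAGE null aortas. Hspa1b read 9.82, 10.07, 10.18 and 10.19 against 11.57, 10.63, 11.51 and 11.62, and 10.22, 10.17 and 9.73 against 10.65, 9.71, 9.71 and 9.60. In both genes diabetic Apoe null replicate 2 was the lowest of its group yet above the non-diabetic arrays, and diabetic Apoe/RAGE null replicate 9 the highest of its group. The interactions were -1.86 ± 0.47 (SE) for Hspa1a and -1.39 ± 0.36 for Hspa1b, or -1.98 and -1.65 without replicates 9 and 10. Both genes lie within 20 Mb of Ager, the 2 of the 19 members that do.

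Hsph1, the HSP110 nucleotide exchange factor, read 8.41, 8.37, 8.46 and 8.38 without and 9.83, 9.45, 9.35 and 9.48 with diabetes in Apoe null aortas. With RAGE deleted it read 8.51, 8.42 and 8.30 without and 8.85, 8.47, 9.24 and 8.03 with diabetes, where the diabetic arrays spread on both sides. The interaction was -0.88 ± 0.28 (SE), or -0.89. Hsp90aa1, the inducible HSP90, and Hspa8, the constitutive HSP70, both named after their values were seen, had only -0.20 ± 0.18 (-0.19) and -0.08 ± 0.17 (-0.13).

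**Figure D3:**
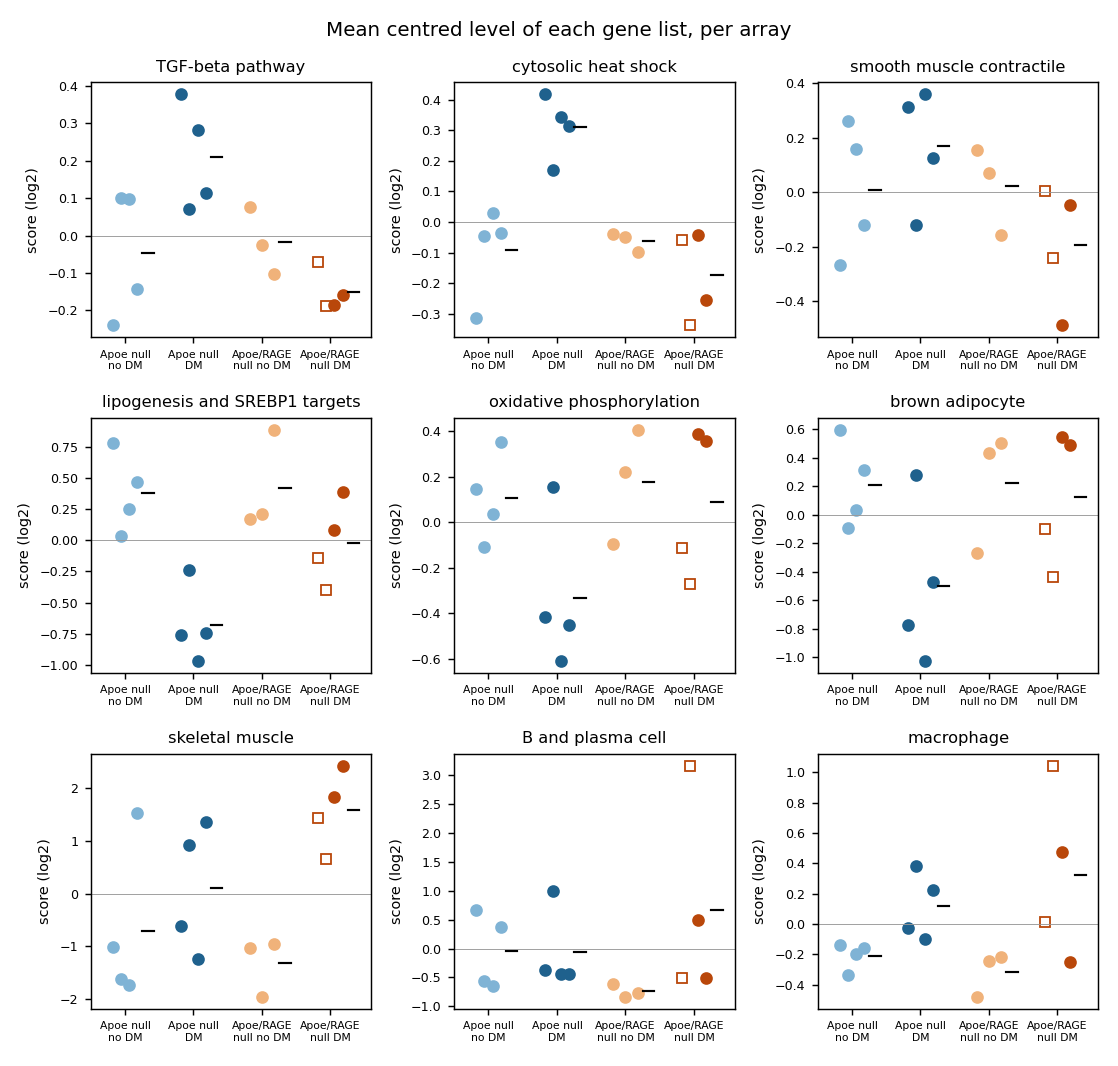
Score of 9 gene lists per array (points; y axis, log2, mean over the list of the level minus the gene's mean over 15 arrays) with the group mean (line), in the 4 groups with and without diabetes (DM); open squares are replicates 9 and 10. Diabetic Apoe null arrays stand highest in heat shock, and the 4 diabetic Apoe/RAGE null arrays lie above 0 in skeletal muscle.

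Genes of the fibrillar matrix and elastic fibres, the load-bearing parts of the aortic wall, had negative interactions in 23 of 23 measured members. They were small, with a median of -0.26 beside median diabetes effects of 0.12 in Apoe null and -0.23 in Apoe/RAGE null aortas. At an unadjusted p under 0.05, 5 were negative, with 0 passing adjustment. Without replicates 9 and 10 the median was -0.27 with 21 of 23 negative, and it ran from -0.42 without replicate 15 to -0.20 without replicate 3. Lox, which cross-links collagen and elastin, read 8.98, 9.54, 9.58 and 8.97 against 9.79, 9.69, 10.04 and 9.71 in Apoe null aortas. With RAGE deleted it read 8.96, 9.13 and 8.88 against 8.76, 8.73, 9.08 and 8.79. Diabetic arrays were all higher with RAGE and overlapped without it, and the interaction was -0.68 ± 0.21 (SE), or -0.59. The elastic fibre genes Mfap5 and Fbln5 had -0.51 ± 0.19 (-0.53) and -0.57 ± 0.24 (-0.53), the collagen gene Col5a2 -0.50 ± 0.21 (-0.43), and Eln, elastin itself, named after its value was seen, -0.24 ± 0.29 (-0.12). The main collagen genes, named likewise, were near 0, with Col1a1 at -0.05 ± 0.38 and Col3a1 at -0.16 ± 0.18, and were positive without replicates 9 and 10 (0.30 and 0.0044).

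Smooth muscle contractile genes were negative in 16 of 17 members, with a median of -0.42 (0.13 in Apoe null, -0.23 in Apoe/RAGE null aortas) and 4 at an unadjusted p under 0.05. The most abundant of them had small interactions: Acta2 -0.14 ± 0.10 (SE), or -0.14, and Myh11 -0.26 ± 0.21, or -0.32, both named after their values were seen. Kcnmb1, a potassium channel subunit that relaxes the vessel, read 7.75, 8.70, 8.66 and 7.91 against 8.78, 8.18, 8.82 and 8.56 in Apoe null aortas. In the mice without RAGE it read 8.42, 8.44 and 8.07 against 7.85, 7.75, 7.25 and 8.19. The Apoe null groups overlapped widely, and the Apoe/RAGE null groups overlapped by replicates 12 and 15. Its interaction was -0.88 ± 0.35 (SE), or -0.92 without replicates 9 and 10. Myocd, the coactivator that sets the smooth muscle programme, read 9.40, 9.73, 9.89 and 9.58 against 10.08, 9.49, 10.34 and 10.60, and 9.62, 9.89 and 9.85 against 10.20, 8.93, 8.88 and 9.46. Replicates 2 and 9 went against the rest of their groups, and the interaction was -0.90 ± 0.39 (SE), or -1.09. Actg2 and Tpm1, genes of thin filament proteins, had -0.77 ± 0.28 (-0.99) and -0.67 ± 0.29 (-0.70), 1 of the 4 probe sets of Tpm1 having the other sign.

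The median of the contractile list was -0.47 without replicates 9 and 10, and ran from -0.51 without replicate 15 to -0.29 without replicate 11. Skeletal muscle markers mostly had interactions of the other sign, with a median of 2.08, and their part in the result was not tested. Their median diabetes effects were positive in both genotypes, at 1.07 in Apoe null and 2.85 in Apoe/RAGE null aortas. Their score was -1.73 to 1.53 and -1.25 to 1.36 in non-diabetic and diabetic Apoe null aortas, and -1.96 to -0.96 and 0.66 to 2.43 in those of Apoe/RAGE null mice. The adventitial fibroblast list was balanced, with 6 of 12 members negative and a median of -0.00.

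In a list of YAP and SRF, factors that respond to cell tension, with their regulators and targets, 15 of 17 members were negative. The median was -0.29 (0.33 in Apoe null, -0.05 in Apoe/RAGE null aortas), or -0.36 without replicates 9 and 10. At an unadjusted p under 0.05 there were 6, and 0 passed adjustment. Tnfrsf12a, the receptor of the cytokine TWEAK, had an interaction of -1.24 ± 0.32 (SE), or -1.10, and lies within 20 Mb of Ager. The kinase gene Lats2 had -0.45 ± 0.16 (-0.55), the adhesion gene Vcl -0.59 ± 0.22 (-0.57) and the receptor kinase gene Axl -0.58 ± 0.26 (-0.64). Tnfrsf12a was lower in diabetic Apoe/RAGE null than in diabetic Apoe null aortas by a log2 difference of -1.22 (limma adjusted p = 0.0432), or -1.08 without replicates 9 and 10 (limma adjusted p = 0.101).

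Wnt antagonists and targets had no common direction, with 11 of 19 negative and a median of -0.06, but 5 negative and 1 positive at an unadjusted p under 0.05. Wif1, a secreted Wnt inhibitor, read 7.02, 7.83, 7.97 and 7.14 against 8.04, 7.16, 8.09 and 7.99 in Apoe null aortas. Without RAGE it read 7.56, 7.17 and 6.99 against 6.30, 5.90, 6.36 and 6.51. Here the separation lay in the Apoe/RAGE null aortas, where every diabetic array was lower, while the Apoe null groups overlapped. The interaction of Wif1 was -1.30 ± 0.36 (SE), or -1.13 without replicates 9 and 10. The antagonist Sfrp2 had -0.83 ± 0.31 (-0.71) and the target Ccn5 -0.78 ± 0.24 (-0.89), whereas the cytoplasmic inhibitor Nkd2 had 0.46 ± 0.17 (0.36), with 2 of its 4 probe sets of that sign.

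A second pattern was a diabetes effect that was negative in both genotypes and closer to 0 without RAGE. It was seen in lipogenesis genes, which are targets of insulin through SREBP1, where 18 of 19 members had a positive interaction, against 49.8% of all genes. The median diabetes effect was -1.16 in Apoe null and -0.55 in Apoe/RAGE null aortas, and the median interaction 0.63, or 0.87 without replicates 9 and 10. At an unadjusted p under 0.05 there were 3 with all arrays and 9 without replicates 9 and 10, with 0 of 19 passing adjustment. Over all 18193 genes, 439 and 966 were positive at that threshold. The list score was 0.03 to 0.78 and -0.97 to -0.24 in non-diabetic and diabetic Apoe null aortas, which did not overlap, and 0.17 to 0.88 and -0.40 to 0.38 in Apoe/RAGE null aortas, which did.

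Fasn, fatty acid synthase, read 12.57, 11.55, 11.93 and 12.09 against 9.91, 9.99, 9.36 and 9.53 in Apoe null aortas. In Apoe/RAGE null aortas it read 11.88, 11.83 and 12.54 against 10.97, 10.34, 10.39 and 11.76. Diabetic arrays were lower in both genotypes with no overlap, by -2.33 and -1.22, and the interaction was 1.11 ± 0.43 (SE), or 1.33 without replicates 9 and 10. Acacb, the acetyl-CoA carboxylase that governs entry of fatty acids into mitochondria, read 9.24, 8.45, 8.81 and 9.27 against 7.55, 8.45, 6.83 and 6.57. Its Apoe/RAGE null values were 8.41, 8.76 and 9.22 against 8.56, 8.26, 9.07 and 9.24, which fully overlapped. With an effect of -1.59 in Apoe null and -0.01 in Apoe/RAGE null aortas, its interaction was 1.58 ± 0.52 (SE), or 1.95. Mlxipl, which encodes the glucose-responsive factor ChREBP, had 0.98 ± 0.41 (1.14) and the elongase gene Elovl5 0.32 ± 0.17 (0.30).

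Fatty acid oxidation and oxidative phosphorylation had the same layout. In fatty acid oxidation 19 of 20 members were positive, with a median of 0.51, and 1 member at an unadjusted p under 0.05. Its median diabetes effects were -0.58 in Apoe null and -0.07 in Apoe/RAGE null aortas. In oxidative phosphorylation 19 of 19 were positive, with a median of 0.34 beside median diabetes effects of -0.45 and -0.09 in the same order. It had 0 members at an unadjusted p under 0.05 and 0 at an adjusted p under 0.05 in limma. Both lists depended on replicates 9 and 10. Without them the medians were 0.93 and 0.63, and 16 of 20 and 12 of 19 members were positive at an unadjusted p under 0.05, against 966 of 18193 genes. The diabetes effect in Apoe/RAGE null aortas then had a median of 0.28 for oxidation of fatty acids and 0.20 for oxidative phosphorylation, above 0 in place of below.

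Acot1, a cytosolic acyl-CoA thioesterase gene, read 5.07, 4.60, 4.39 and 4.63 against 3.90, 4.40, 3.72 and 4.37 in Apoe null aortas. In Apoe/RAGE null aortas it read 4.65, 4.95 and 4.93 against 4.88, 5.10, 6.04 and 5.42, the diabetic arrays mostly above. Its interaction was 1.09 ± 0.33 (SE), or 1.46 without replicates 9 and 10. The carnitine carrier gene Slc25a20 had 0.71 ± 0.39 (1.08), the dehydrogenase gene Acads 0.73 ± 0.40 (1.17) and the mitochondrial thioesterase gene Acot2 0.56 ± 0.32 (0.79). Among respiratory chain genes, Uqcrc2 of complex III had 0.59 ± 0.30 (0.85), Ndufv1 and Ndufb8 of complex I 0.55 ± 0.28 (0.79) and 0.43 ± 0.27 (0.63), and Cycs, cytochrome c, 0.44 ± 0.24 (0.59).

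Markers of fat cells moved with these genes, and their part in the result was not tested. Brown adipocyte markers had positive interactions in 8 of 10 (median 0.70, or 1.18 without replicates 9 and 10). White adipocyte markers had them in 8 of 9 (median 0.38, or 0.63 without these). With all arrays, 0 of 10 brown and 0 of 9 white markers were at an unadjusted p under 0.05. Without replicates 9 and 10, 7 brown and 6 white markers were positive at it, against 966 of 18193 genes. The median diabetes effects in Apoe null and Apoe/RAGE null aortas were -0.90 and -0.16 for brown and -0.57 and -0.04 for white adipocyte markers. The brown adipocyte score was -0.10 to 0.59 and -1.03 to 0.28 in non-diabetic and diabetic Apoe null aortas, and -0.27 to 0.50 and -0.44 to 0.55 in Apoe/RAGE null aortas. The white adipocyte score was 0.03 to 0.29, -0.73 to 0.14, -0.10 to 0.50 and -0.33 to 0.44 in the same order. Diabetic Apoe null replicate 2 stood with the non-diabetic arrays in both scores and in that of oxidative phosphorylation (0.16, against -0.61 to -0.42 in the rest of its group). Without it the median interaction was 0.55 for oxidative phosphorylation and 0.76 for fatty acid oxidation, and without replicate 13 it was 0.20 and 0.34.

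**Figure D4:**
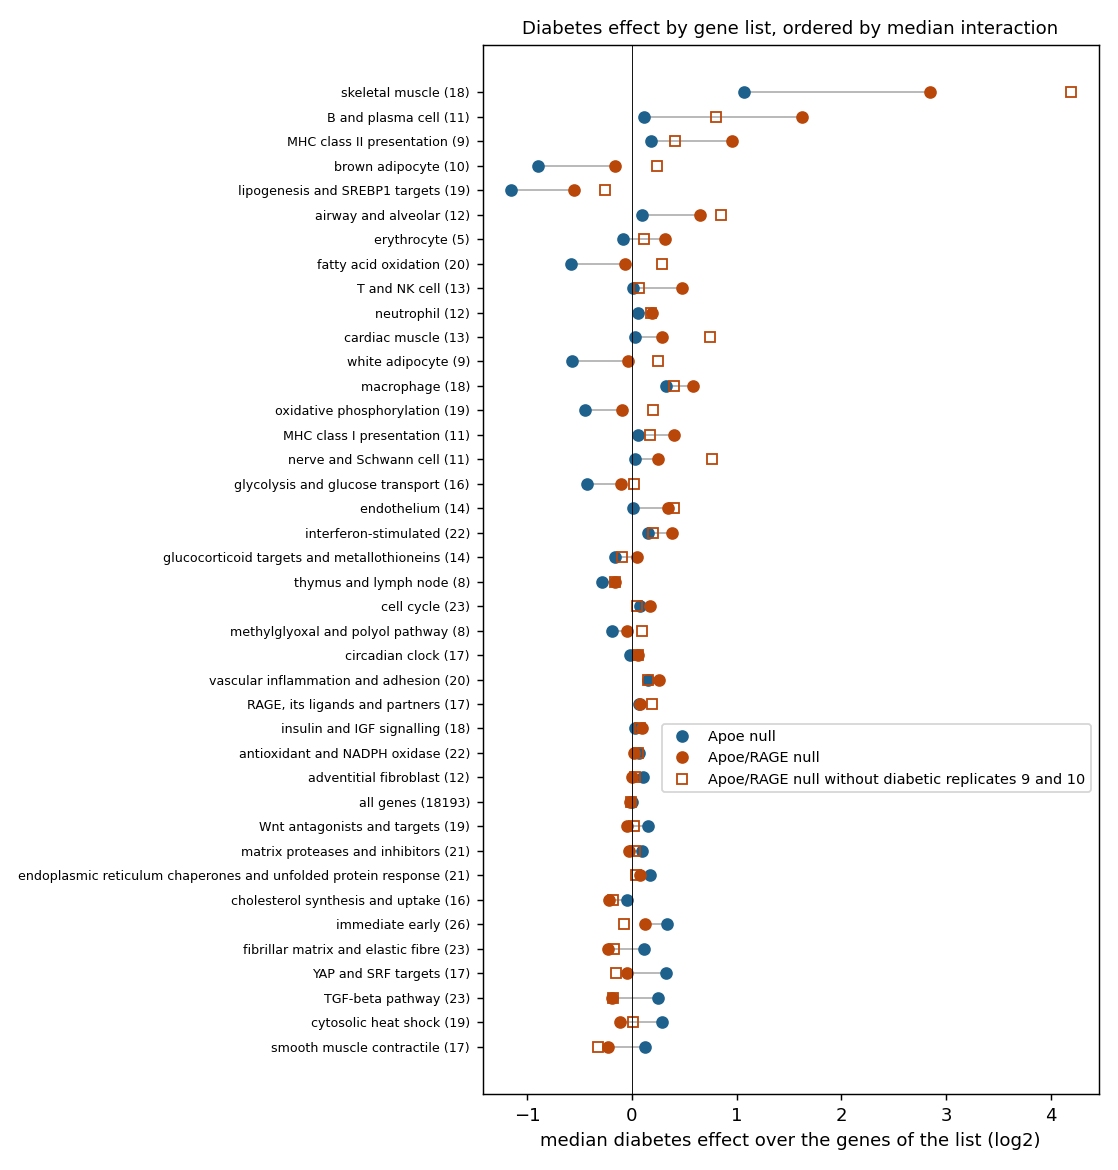
Median diabetes effect (x axis, log2) of each gene list in Apoe null (blue) and Apoe/RAGE null aorta (orange), with open squares for the latter without replicates 9 and 10, ordered by median interaction and with the number of genes measured in brackets. In lipogenesis the points are at -1.16 and -0.55, and in the TGF-beta pathway they lie on opposite sides of 0, at 0.25 and -0.19.

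Among the 12 positive genes with the smallest p, 11 had diabetes effects of opposite sign in the 2 genotypes. They were Eepd1, Ngp, Tbx1, Chac1, Erdr1, Ebf1, Gemin2, Ptcd1, Gramd1a, S100a9, Apoe and Tecpr1. As with the negative genes, they were ranked on the interaction, so that these signs describe them and do not test it. The interactions ran from 0.52 to 2.25, or 0.43 to 2.15 without replicates 9 and 10, and all had limma adjusted p = 0.675. With diabetes, 2 of the 12 differed between the genotypes at an adjusted p under 0.05 in limma, Erdr1 by 1.96 and Eepd1 by 0.52. Only Erdr1 did without replicates 9 and 10, by 2.21 (limma adjusted p = 0.015), with Eepd1 at 0.54 (limma adjusted p = 0.0826).

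Erdr1, erythroid differentiation regulator 1, read 8.62, 9.58, 9.83 and 9.33 against 7.65, 7.85, 8.36 and 7.79 in Apoe null aortas. With RAGE deleted it read 9.46, 9.67 and 9.05 against 10.31, 8.94, 10.04 and 10.20. All diabetic Apoe null arrays were lowest, and in Apoe/RAGE null aortas 3 of the 4 diabetic arrays were above the non-diabetic ones. The interaction was 1.91 ± 0.44 (SE), or 2.15 without replicates 9 and 10. Eepd1, an endonuclease family gene, read 5.68, 5.63, 5.54 and 5.71 against 4.79, 4.95, 5.15 and 5.15, and 5.40, 5.47 and 5.46 against 5.68, 5.33, 5.62 and 5.48. Again only the diabetic Apoe null group was apart, and the interaction was 0.72 ± 0.14 (SE), or 0.75.

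Chac1, which degrades glutathione and belongs to the amino acid stress response, read 6.01, 5.67, 5.59 and 6.08 against 5.63, 5.85, 5.03 and 5.22 in Apoe null aortas. In the mice without RAGE it read 5.30, 5.60 and 5.44 against 6.14, 5.98, 6.39 and 6.04, with no overlap. Its interaction was 1.09 ± 0.25 (SE), or 1.17. Apoe, which is disrupted in every mouse, read 3.93, 3.60, 4.04 and 3.71 against 3.61, 3.51, 3.63 and 3.14, and 3.20, 3.40 and 3.48 against 3.76, 3.70, 3.70 and 3.53. All these readings were under the array medians, so that its interaction of 0.66 ± 0.18 (SE), or 0.60, concerns a signal in the low range. Ngp, a neutrophil granule gene, was also low, reading 4.13, 4.13, 3.98 and 4.13 against 3.73, 3.57, 3.74 and 3.68, and 3.52, 3.76 and 4.04 against 3.94, 4.37, 4.30 and 4.24. Its interaction was 0.85 ± 0.17 (SE), or 0.91.

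**Figure D5:**
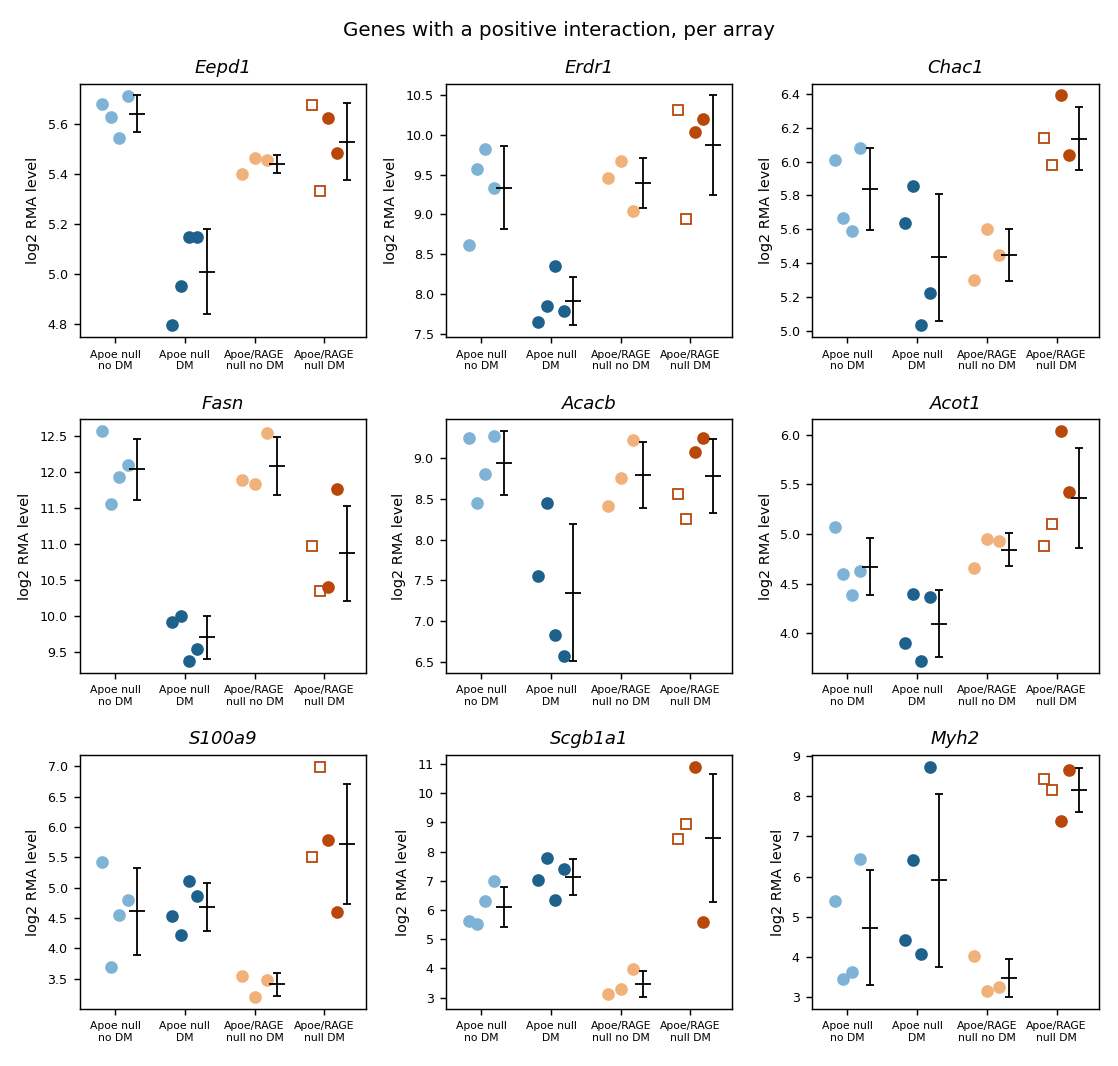
Log2 level per array (points; y axis) with the group mean and SD (bars) of 9 genes with a positive interaction, in the order non-diabetic and diabetic Apoe null, then non-diabetic and diabetic (DM) Apoe/RAGE null; open squares are replicates 9 and 10. In Fasn the diabetic arrays are the lower ones in both genotypes, and in Scgb1a1 the 3 non-diabetic Apoe/RAGE null arrays, at 3.12 to 3.98, lie below all others.

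The ligands and partners of RAGE did not move as a group. Of 17 measured genes 11 had positive interactions, with a median of 0.07, or -0.05 without replicates 9 and 10. S100a9, a neutrophil ligand of RAGE, read 5.42, 3.69, 4.54 and 4.80 against 4.53, 4.21, 5.11 and 4.86 in Apoe null aortas. Its Apoe/RAGE null values were 3.55, 3.19 and 3.48 against 5.51, 6.99, 5.79 and 4.60. The non-diabetic Apoe/RAGE null arrays were lowest, and the interaction was 2.25 ± 0.61 (SE), or 1.72 without replicates 9 and 10. Its partner S100a8 had 2.20 ± 0.71, or 1.65.

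S100a4, a ligand made by fibroblasts and smooth muscle, had the opposite sign. It read 9.94, 10.01, 10.07 and 9.80 against 10.99, 10.53, 10.79 and 11.03 in Apoe null aortas, and 10.08, 9.89 and 9.67 against 10.32, 10.41, 9.93 and 9.84 in Apoe/RAGE null aortas. The diabetic Apoe null arrays stood above all others, and the interaction was -0.64 ± 0.21 (SE), or -0.88. Its relative S100a6 had -0.42 ± 0.18, or -0.55. Ager itself read 4.69, 4.59, 4.68 and 4.45 against 4.36, 4.54, 4.17 and 4.62, and 4.91, 4.89 and 5.09 against 4.63, 4.48, 5.36 and 4.95. Its interaction was 0.07 ± 0.23 (SE; limma adjusted p = 0.963), or 0.37 without replicates 9 and 10, with 1 of its 2 probe sets of each sign. Glo1, the glyoxalase that removes the glycating agent methylglyoxal, read 8.64, 9.02, 9.38 and 9.31 against 8.58, 8.28, 8.47 and 8.74 in Apoe null aortas, and 9.55, 9.34 and 9.31 against 9.27, 9.19, 9.56 and 9.31 in Apoe/RAGE null aortas. The interaction of Glo1 was 0.50 ± 0.22 (SE), or 0.61, but it lies within 20 Mb of Ager and only 2 of its 4 probe sets had that sign.

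In other lists the difference between diabetic and non-diabetic aortas was larger without RAGE. In skeletal muscle the non-diabetic Apoe/RAGE null scores were -1.96 to -0.96 and the diabetic ones 0.66 to 2.43. Non-diabetic Apoe null arrays other than replicate 8, which was at 1.53, were low as well, at -1.73 to -1.01. Skeletal muscle genes had the largest median interaction of the 39 lists, 2.08 (1.07 in Apoe null, 2.85 in Apoe/RAGE null aortas), positive in 17 of 18 members and in 7 at an unadjusted p under 0.05. Myh2, a fast myosin heavy chain, read 5.40, 3.45, 3.62 and 6.43 against 4.42, 6.41, 4.07 and 8.73 in Apoe null aortas, and 4.02, 3.15 and 3.24 against 8.43, 8.15, 7.38 and 8.65 in Apoe/RAGE null aortas. The spread within the Apoe null groups was wide, and the Apoe/RAGE null groups did not overlap, with an interaction of 3.50 ± 1.26 (SE), or 3.37. Mylpf and Tnni2 had 2.65 ± 1.00 (3.05) and 3.51 ± 1.35 (3.92). The list median was 1.21 without replicate 8, a non-diabetic Apoe null array high in muscle genes, and 2.88 without replicates 9 and 10.

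Airway and alveolar genes, of tissue outside the vessel, had positive interactions in 11 of 12 members, Ager itself among them. Their median was 0.61, or 0.81 without replicates 9 and 10 and 0.21 without replicate 11. Foxj1 was the negative member, at -0.20, and the surfactant genes Sftpa1, Sftpb, Sftpc and Sftpd had 0.23, 0.04, 0.15 and 0.65. These genes were named after their values were seen, and are given with all arrays only. Scgb1a1, a secretory protein of airway club cells, read 5.64, 5.52, 6.30 and 7.0 against 7.04, 7.77, 6.33 and 7.39 in Apoe null aortas, and 3.12, 3.31 and 3.98 against 8.42, 8.94, 10.90 and 5.59 in Apoe/RAGE null aortas. Its interaction was 3.97 ± 1.14 (SE), or 3.75, and the non-diabetic Apoe/RAGE null arrays were lowest. The airway score was -0.55 to 0.23, -0.16 to 0.40, -0.89 to -0.73 and -0.36 to 2.11 in non-diabetic and diabetic Apoe null and non-diabetic and diabetic Apoe/RAGE null aortas.

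Lists of lymphoid cells, antigen presentation and macrophages depended on replicate 10. Medians were 1.33 for B and plasma cells (10 of 11 positive), 0.80 for MHC class II presentation (9 of 9), 0.43 for T and NK cells (12 of 13) and 0.36 for macrophages (17 of 18). Each of these lists had 0 members at an unadjusted p under 0.05, against 8.57% of all genes, and 0 also without replicates 9 and 10. Without replicate 10 the medians were 0.46, 0.10, 0.00 and 0.09, and without replicates 9 and 10 they were 0.58, 0.19, 0.06 and 0.10. The B and plasma cell score was 3.17 in replicate 10 and -0.52 to 0.50 in the other 3 diabetic Apoe/RAGE null aortas. In the MHC class II list 7 of 9 members lie within 20 Mb of Ager, and in class I 8 of 11. Neutrophil markers were positive in 9 of 12, with 4 at an unadjusted p under 0.05 both with all arrays and without replicates 9 and 10. Over all 18193 genes, 439 and 966 were positive at that threshold. Of the 4, Ngp and Mmp8 were low, with every group mean under the array medians. The median of the neutrophil list was 0.41, or 0.21 without replicates 9 and 10. It ran from 0.35 without replicate 13 to 0.48 without replicate 6. Endothelial genes were positive in 11 of 14, with a median of 0.26, or 0.36 without replicates 9 and 10 and 0.14 without replicate 11. Single values were 0.50 ± 0.20 (SE) for Egfl7, or 0.36, 0.87 ± 0.38 for Robo4, or 0.92, 0.67 ± 0.32 for Cldn5, or 0.35, and 0.65 ± 0.34 for Kdr, or 0.81. Those genes had the smallest p of the list. Its 3 negative members, named after their values were seen, were Pecam1 at -0.21, Erg at -0.20 and Eng at -0.01, with all arrays only.

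Of the 100 genes with the smallest p, 6 (6%) lay within 20 Mb of Ager, against 568 of 18193 (3.12%), from which nothing is read.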

How the data were processed

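RNA from 15 aortas was measured on Affymetrix mouse arrays, 1 per mouse. The authors deposited log2 values after RMA summarization, as the submitters' processing notes give it and per the labels' design text, whose wording does not settle whether arrays of different groups were normalized together. No further normalization was applied.

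Groups came from the labels. In limma 3.58.1 (R 4.3.3) each group had its own mean, with 11 residual degrees of freedom and Benjamini-Hochberg adjustment over 45037 probe sets at 0.05. P-values measure the spread between mice as labelled, and precision is limited by how few arrays there are. Of the probe sets, 34945 carried 1 gene, 932 several and 9160 none named here, by the array annotation, and 34741 matched RefSeq genes (GRCm38.p6). The probe set with the highest mean stood for each gene.

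Named were the 12 genes of smallest interaction p in each direction, provisional symbols skipped, the 4 of smallest p in each of 39 lists, Ager, Apoe and 6 genes near Ager; others are marked. The comparison, lists and rules were chosen with earlier results of these data known. The code was tested on simulated data. Alternatives were B above 0, no adjustment, dimmer or probe-sharing probe sets left out, values centred or quantile normalized, a trended robust variance, weighted arrays, 1 or every probe set per gene, and arrays left out. Figures were drawn with matplotlib 3.10.9.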

Additional observations from a re-analysis of the deposited data

Results flagged for a closer look

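In groups of 4 arrays, 1 array can stand far from the other 3. This was examined in 213 groups, for 32 genes and 39 list scores, and 11 passed Dixon's 95% limit; chance alone gives about 1 in 20. Diabetic Apoe null replicate 2 read 10.63 in Hspa1b, with the rest of its group at 11.51 to 11.62, and 7.16 in Wif1, with the rest at 7.99 to 8.09. Its B and plasma cell score was 1.00, against -0.44 to -0.38. Diabetic Apoe/RAGE null replicate 9 read 10.65 in Hspa1b, with the rest at 9.60 to 9.71, and its YAP and SRF score was 0.04, against -0.20 to -0.16. Replicate 10 of that group read 6.25 in Camta1, with the rest at 6.64 to 6.70. Its cell cycle score was 0.64, against -0.17 to -0.06, and its thymus and lymph node score 0.51, against -0.06 to 0.01. Replicate 11 of that group had a cardiac muscle score of 1.31, against -0.01 to 0.16. Non-diabetic Apoe null replicate 7 read 3.98 in Ngp, with the others at 4.13, and replicate 5 of that group had a cell cycle score of 0.16, against -0.11 to -0.09.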

How the results depend on the processing

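Under every alternative that keeps the adjustment, 0 probe sets passed it for the interaction in limma, also with any 1 array left out, where the counts at an unadjusted p under 0.05 ran from 2299 (without replicate 5) to 4414 (without replicate 2). With no adjustment 3251 passed, and 1539 with 1 probe set per gene. The correlation of the diabetes effects ran from 0.0953 to 0.3114 with 1 array left out, with a jackknife SE of 0.311. The probe sets called for RAGE deletion in diabetic aorta, 110, were 253 without dim probe sets, 53 with array weights, 72 with 1 probe set per gene, 22 without replicates 9 and 10 and 0 to 931 with 1 array left out, all chosen after the data were seen. Of 2503 values of 105 genes under the alternatives 2480 kept their direction and 23 turned, in 6 genes. Ager turned from 0.07 to -0.016 without probe sets that can share probes, and ran from -0.0993 to 0.1945 with 1 array left out, negative without replicate 3 (-0.0142) or 11. Decr2 turned from -0.35 to 0.82 without replicates 9 and 10, and ran from -0.7657 to 0.0561 with 1 array left out, positive without replicate 9 (0.0256) or 10. Col1a1 turned to 0.0731 over every probe set, 0.0772 with array weights and 0.3043 without replicates 9 and 10, and ran from -0.2244 to 0.1448 with 1 array left out. Col3a1 turned to 0.0044 without replicates 9 and 10. Tgfb1 turned to 0.0946 over every probe set and ran from -0.2047 to 0.041, and Hspa8 ran from -0.1619 to 0.0289, with 1 array left out. The cause was not tested. Adjusted p of the genes ran from 0.182 to 1 in limma. Of 897 list medians 876 moved by less than the list's own SD between arrays of a group. That limit was wide in the lists that depended on replicate 10. It was 0.81 in MHC class II presentation, so that a fall of the median from 0.80 to 0.10 without that replicate counted as within it. No paired analysis was possible because replicate numbers run through the series and no number is shared between groups. The 3 non-diabetic Apoe/RAGE null arrays enter every interaction.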

Other observations

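Outside the groups above, stress and clock genes gave single values, with those without replicates 9 and 10 in brackets. In the endoplasmic reticulum chaperone list, whose products fold secreted proteins, 16 of 21 members had a negative interaction, with a median of -0.11. The secreted folding factor gene Manf had -0.50 ± 0.23 (SE; -0.50) and the co-chaperone gene Dnajc3 -0.31 ± 0.13 (-0.39). Clock, a core circadian activator, had -0.43 ± 0.18 (-0.40), and its diabetes effect was 0.59 in Apoe null and 0.16 in Apoe/RAGE null aortas. The circadian output gene Hlf had 0.56 ± 0.22 (0.36). Among antioxidant genes, 12 of 22 were positive, with Cat, catalase, at 0.53 ± 0.21 (0.55) and Nqo1, a quinone reductase, at -0.57 ± 0.23 (-0.79). None of these passed adjustment in limma.

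The smallest p of any probe set belonged to a second probe set of Zfp800, a zinc finger gene, with an interaction of -0.67 ± 0.113 (SE), or -0.60 without replicates 9 and 10, at a mean level of 5.07.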
